A study of Rattus norvegicus with 6 samples.

Results

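The genes described here are 9 transcripts that separate inhibitory from excitatory neurons: the GABA synthesis and loading genes Gad1, Gad2 and Slc32a1, the transcription factor genes Dlx1, Dlx2, Dlx5 and Lhx6, and the vesicular glutamate transporter genes Slc17a6 and Slc17a7. They were taken by symbol from a table of 37183 gene symbols, and all 9 were found in it. The study measured RNA of primary cultured rat hippocampal cells, to ask how insulin acts on lipid metabolism in the brain. Neurons were sampled at 0 h as a control and after 6 h and 12 h of 200 nM insulin, and astrocytes were sampled in the same way. By title the controls received saline, and by another label they were untreated. All cultures received new medium 4 h before treatment, serum-free and without insulin for neurons, and with 2% FBS and 5 mM glucose for astrocytes. Insulin libraries therefore spent longer in the new medium than controls, which cannot be told apart from insulin. Each of the 6 groups had 1 library, so there are no replicates, no error and no test, and every difference below compares 2 libraries.

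GABA is made from glutamate by the decarboxylases encoded by Gad1 and Gad2 and is loaded into synaptic vesicles by the transporter encoded by Slc32a1. In the embryonic ventral forebrain, homeodomain factors of the Dlx family specify GABAergic neurons, and Lhx6 acts in the interneurons that migrate from the medial ganglionic eminence into cortex and hippocampus. Glutamate is loaded into vesicles by the transporters encoded by Slc17a7, the main form of hippocampal pyramidal cells, and Slc17a6. Pyramidal and granule cells outnumber interneurons in the hippocampus.

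The promoters of the main GABA genes and of the glutamate transporters are shown because these genes lie at opposite ends of the scale in the same libraries. RefSeq promoters of build GRCr8, from 250 bases before to 50 after the start, were matched for 7 of the 9 genes. Each is written 5′ to 3′ on the strand of the gene, with CpG dinucleotides in capitals. Gad1 lies at chr3:75777202-75777501 (+), Slc32a1 at chr3:167686995-167687294 (+), Slc17a6 at chr1:110348197-110348496 (+) and Slc17a7 at chr1:104785955-104786254 (+).
Gad1: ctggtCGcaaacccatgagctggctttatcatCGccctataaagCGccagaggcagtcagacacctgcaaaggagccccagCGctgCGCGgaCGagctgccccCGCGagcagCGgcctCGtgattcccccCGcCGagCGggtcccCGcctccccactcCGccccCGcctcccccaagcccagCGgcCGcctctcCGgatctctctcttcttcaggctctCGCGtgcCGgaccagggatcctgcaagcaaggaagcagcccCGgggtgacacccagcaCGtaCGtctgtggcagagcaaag
Slc32a1: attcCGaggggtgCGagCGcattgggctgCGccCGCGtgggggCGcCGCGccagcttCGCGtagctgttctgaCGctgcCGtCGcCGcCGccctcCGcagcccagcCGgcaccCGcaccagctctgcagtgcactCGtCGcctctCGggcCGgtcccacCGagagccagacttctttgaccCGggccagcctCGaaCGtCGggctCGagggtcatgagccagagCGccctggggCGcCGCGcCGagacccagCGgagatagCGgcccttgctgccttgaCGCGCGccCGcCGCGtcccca
Slc17a6: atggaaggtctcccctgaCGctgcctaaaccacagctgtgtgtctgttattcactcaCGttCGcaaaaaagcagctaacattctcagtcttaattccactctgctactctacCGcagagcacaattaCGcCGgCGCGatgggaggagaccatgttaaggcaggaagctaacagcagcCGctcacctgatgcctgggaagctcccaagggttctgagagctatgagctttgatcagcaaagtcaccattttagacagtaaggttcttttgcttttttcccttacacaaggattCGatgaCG
Slc17a7: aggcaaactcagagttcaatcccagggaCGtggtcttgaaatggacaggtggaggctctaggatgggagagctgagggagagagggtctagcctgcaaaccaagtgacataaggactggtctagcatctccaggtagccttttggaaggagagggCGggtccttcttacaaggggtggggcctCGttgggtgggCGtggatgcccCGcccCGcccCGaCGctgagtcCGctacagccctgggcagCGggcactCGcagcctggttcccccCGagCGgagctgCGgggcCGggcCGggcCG
The Slc32a1 window held 42 CpGs and the Gad1 window 26, against 17 for Slc17a7 and 11 for Slc17a6. The windows of Gad2, Dlx1 and Lhx6 held 29, 27 and 20, and the median over all 33469 promoters of that table was 7. The letters TAATT, a core bound by many homeodomain proteins, were searched on both strands and stood in 2 places of the Slc17a6 window and in none of the other 6, while 28.5% of all promoters held them. The letters CAGATG, a form of E-box, were searched on both strands as well and were in none of the 7 windows, while 16.6% of all promoters held them. In the same assembly Dlx1 and Dlx2 are neighbouring protein-coding genes, as are Dlx5 and Dlx6. A noncoding RNA gene overlaps Dlx1 and another overlaps Lhx6. The sources used here do not say whether strand was used in counting, so reads of such a partner cannot be told apart from those of Dlx1 or Lhx6.

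Levels are given in FPKM, a fragment count divided by transcript length and library size, after the authors' quantile normalisation. The number of symbols with a value was 23927 to 25528 in the neuron-labelled libraries and 22891 to 23898 in the astrocyte-labelled ones. Depth is unknown. The neuron-labelled libraries held glial as well as neuronal transcripts. The 18 pan-neuronal markers summed to between 74.4 and 83.9 FPKM in them and the 12 astrocyte markers to between 349 and 388 FPKM. The 12 oligodendrocyte lineage markers summed to between 144 and 154 FPKM, and 6 or 7 of them reached 1 FPKM. Olig1, a factor of that lineage, was the highest of these 12, at 78.5 to 85.4 FPKM. In the astrocyte-labelled libraries the sums were 5.38 to 7.24 FPKM for pan-neuronal and 55.3 to 62.6 FPKM for astrocyte markers, while smooth muscle and fibroblast markers summed to between 491 and 590 FPKM. Tagln alone gave 353 to 417 FPKM of that last sum, and 6 of the 10 markers of its list reached 1 FPKM in each library. Libraries are therefore called by their labels here. Fewer cells of a type and less RNA per cell cannot be told apart in bulk RNA.

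The GABA synthesis and loading genes were all above 1 FPKM in the neuron-labelled libraries. Slc32a1, the vesicular GABA transporter, had a level of 21.7 FPKM without insulin, 17.2 FPKM at 6 h and 15.1 FPKM at 12 h. The control value placed it 526th from the top of that library, where Gad1 was 1606th and Gad2 4575th. Gad1, the decarboxylase that supplies most GABA in the brain, was at 5.78, 5.38 and 3.38 FPKM at the same times. Gad2, the decarboxylase enriched at nerve terminals, was at 1.56, 1.56 and 1.09 FPKM. For each of the 3 genes the 12 h library was the lowest, and for Gad1 and Gad2 the control and 6 h libraries lay close together. Gad1 exceeded Gad2 in FPKM by 3.71, 3.44 and 3.11 times, and Slc32a1 exceeded the sum of both by 2.96, 2.48 and 3.38 times. In the astrocyte-labelled libraries the same genes were near 0 or blank. Gad1 had 0.000865 FPKM without insulin and 0.00144 FPKM at 6 h, Gad2 at 0.000585 and 0.000484 FPKM, and Slc32a1 at 0.00554 FPKM at 6 h only. All 3 were blank at 12 h.

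The transcription factor genes were also expressed in the neuron-labelled libraries. Dlx1 was the highest of them, with 11.6 FPKM before insulin, 11.0 FPKM at 6 h and 10.1 FPKM at 12 h. Its neighbour Dlx2 was at 2.67, 2.32 and 2.22 FPKM, and Dlx5, a family member that acts later in the same lineage, at 1.43, 1.38 and 1.32 FPKM. Lhx6, the marker of interneurons of the medial ganglionic eminence, was at 1.52, 1.46 and 1.01 FPKM. Each stepped down in the same order of libraries, and for the Dlx genes the steps were small. In the astrocyte-labelled libraries these factors were below 1 FPKM, but the Dlx genes had a value in each library. Dlx1 had 0.122 FPKM without insulin, 0.140 FPKM at 6 h and 0.156 FPKM at 12 h. Dlx2 was at 0.0763, 0.165 and 0.164 FPKM and Dlx5 at 0.0272, 0.0496 and 0.0552 FPKM. For these 3 genes, the only members with a value in all 6 libraries, the lowest neuron-labelled value lay above the highest astrocyte-labelled value. The same was so for 41.6% of the 7754 genes that were blank in none of the 6 libraries and reached 1 FPKM somewhere. Lhx6 was blank in the astrocyte-labelled control and at 0.00240 and 0.00122 FPKM after insulin.

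**Figure D1:**
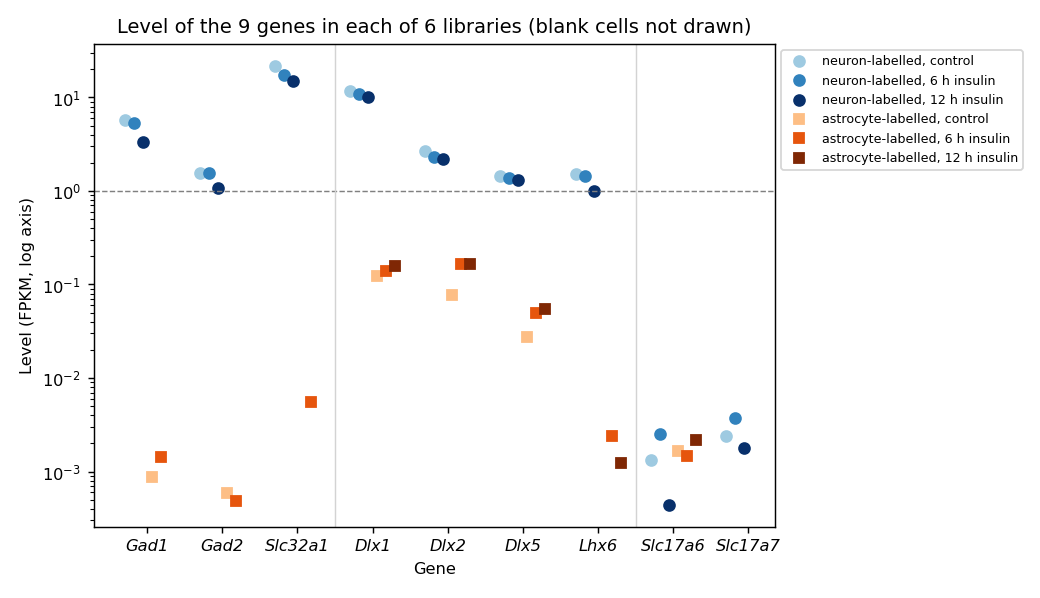
Level of the 9 genes (FPKM, log axis) in the 3 neuron-labelled (circles) and 3 astrocyte-labelled libraries (squares), 1 point per library, with a dashed line at 1 FPKM; blank cells are not drawn. The 7 inhibitory genes lie between 1.01 and 21.7 FPKM in the neuron-labelled libraries, and Slc17a6 and Slc17a7 lie below 0.004 FPKM wherever they have a value.

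The vesicular glutamate transporters were at the bottom of the table in every library. Slc17a7 was at 0.00241 FPKM in the neuron-labelled control, 0.00378 FPKM at 6 h and 0.00179 FPKM at 12 h, and was blank in all 3 astrocyte-labelled libraries. Slc17a6 was at 0.00134, 0.00255 and 0.000440 FPKM in the neuron-labelled libraries and at 0.00164, 0.00147 and 0.00217 FPKM, in the same order of times, in the astrocyte-labelled ones. The ranges of Slc17a6 in the libraries of the 2 labels overlapped. The summed level of Gad1, Gad2 and Slc32a1 exceeded that of Slc17a6 and Slc17a7 by 12.92 on the log2 scale in the neuron-labelled control, 11.90 at 6 h and 13.10 at 12 h. The order of these 3 ratios follows the denominator, which was 0.00374, 0.00633 and 0.00223 FPKM, and with depth unknown no change is read from it. The numerator was 29.1, 24.2 and 19.6 FPKM, and the sum of Gad1, the 3 Dlx genes and Lhx6 was 23.0, 21.6 and 18.0 FPKM. No ratio was formed for the astrocyte-labelled libraries, where Gad1, Gad2, Slc32a1, Slc17a6 and Slc17a7 were below 0.01 FPKM or blank. The sum of Gad1, the 3 Dlx genes and Lhx6 was 0.226, 0.358 and 0.377 FPKM there.

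The remaining excitatory genes were low as well. Of 25 genes of excitatory lineage and identity, 24 were in the table and only Lhx2, a factor of the dorsal forebrain that glia also express, reached 1 FPKM in a neuron-labelled library, at 1.33, 1.49 and 1.42 FPKM. Slc17a8, the remaining vesicular glutamate transporter, was at 0.00492, 0.00502 and 0.00609 FPKM. The following genes were chosen after their values were seen. Neurod1 and Eomes, factors of the excitatory lineage, were blank in all 6 libraries. Tbr1, which acts in glutamatergic neurons of the cortex, was at 0.0101, 0.0387 and 0.00253 FPKM, and Neurod6, a marker of pyramidal neurons, had a value only at 6 h, 0.00670 FPKM. Camk2a, a kinase gene of mature excitatory neurons, was at 0.0767, 0.0865 and 0.0990 FPKM. Others of the list were higher, with Bcl11b, a factor of several neuron classes, at 0.701, 0.794 and 0.706 FPKM, Emx2, of the dorsal forebrain, at 0.405, 0.621 and 0.621 FPKM, and Nptx1, a synaptic pentraxin gene, at 0.369, 0.339 and 0.258 FPKM. Pan-neuronal markers spanned a wide range in the same libraries, with the tubulin gene Tubb3 at 30.0, 32.5 and 33.7 FPKM and Rbfox3, a marker of mature neurons, at 0.774, 0.941 and 0.843 FPKM. The cell composition of these cultures was not tested. Markers of other transmitters were below 1 FPKM in all 6 libraries, with a sum of 0.285 to 0.422 FPKM in the neuron-labelled ones.

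Between the control libraries, the inhibitory genes were far higher in the neuron-labelled one. Genes were compared where neither library was blank and the higher of the values was 1 FPKM or above, and a log2 difference of 1 or more, a 2-fold change, was counted as higher or lower. Of the 9 genes 5 could be compared, and all 5 were higher in the neuron-labelled control, where 21.9% of 7146 genes were higher and 18.7% lower. Each of the 5 passed the floor through its neuron-labelled value alone, so its direction was set by the filter and nothing is read from the count. The differences were 5.13 for Dlx2, 5.72 for Dlx5 and 6.57 for Dlx1 on the log2 scale. Those of Gad2 and Gad1, 11.38 and 12.71, rest on astrocyte-labelled values under 0.001 FPKM and are uncertain in size. Slc32a1, Lhx6 and Slc17a7 were blank in the astrocyte-labelled control, and Slc17a6 was below the floor in both.

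After insulin, none of the 7 inhibitory genes reached 2-fold in the neuron-labelled libraries at either time. Slc17a6 and Slc17a7 were below the floor and could not be compared. At 6 h, 1.6% of 6610 genes were higher and 1.29% lower, and at 12 h 2.39% of 6641 were higher and 1.45% lower. Below the size of 2-fold, the differences leaned one way. At 6 h, 6 of the 7 inhibitory genes were below 0, as were 31.9% of all genes, and their median was -0.07 against 0.14 for all genes on the log2 scale. At 12 h all 7 were below 0, as were 33.9% of all genes, with a median of -0.52 against 0.14. More symbols carried a value after insulin than in the control. Under shared quantiles this can lift the median of all genes, which was not tested, so differences are also read against that median. Both times share the control library.

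The GABA genes lay further from 0 at 12 h than the Dlx genes. Gad1 had a 12 h difference of -0.77, lower than in all but 2.39% of genes, and a 6 h difference of -0.10. Gad2 was at -0.52 at 12 h and 0.01 at 6 h, and Slc32a1 at -0.53 and -0.34. Slc32a1 was thus the inhibitory gene with the lowest difference at 6 h, and Gad1 the one at 12 h. Among the factors Lhx6 was at -0.60 at 12 h and -0.06 at 6 h. Dlx1 was at -0.20 and -0.07, Dlx2 at -0.26 and -0.20, and Dlx5 at -0.11 and -0.05. The 5th percentile of all genes was -0.53 at 12 h, which Gad1 and Lhx6 lay beyond, and -0.40 at 6 h, which none lay beyond. Slc17a6 and Slc17a7 stayed below the floor and were not compared.

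**Figure D2:**
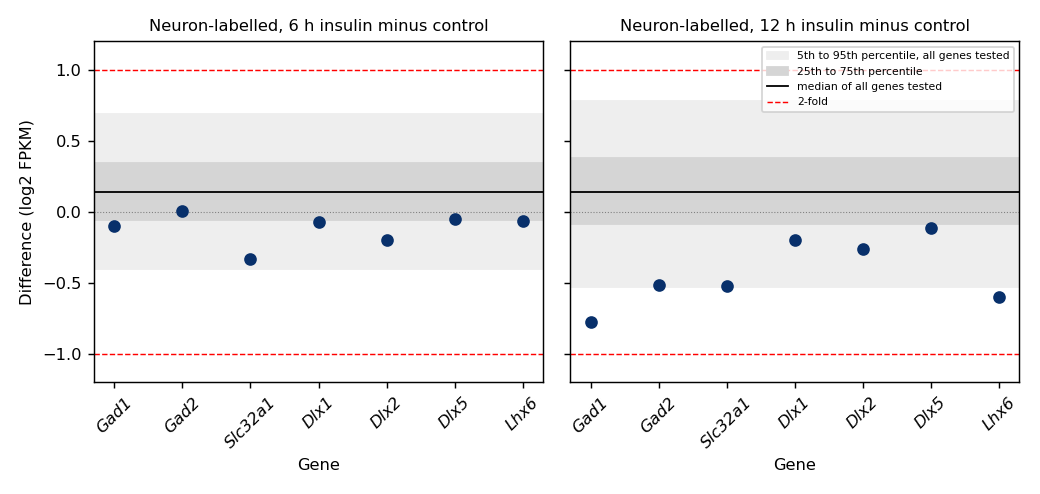
Difference of the 7 inhibitory genes (log2 FPKM) after 6 h (left) and 12 h of insulin (right) from the control in the neuron-labelled libraries, 1 library per group, over the spread of all genes tested (bands), their median (line) and 2-fold (dashed). At 12 h the points lie between -0.77 and -0.11, all below the all-gene median of 0.14, and none reaches 2-fold.

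The step between the insulin libraries does not involve the control. From 12 h minus 6 h, 0 of the 7 inhibitory genes were counted in either direction, where 0.555% of 6662 genes were higher and 0.51% lower. Slc17a6 and Slc17a7 were again below the floor and not compared. All 7 inhibitory genes were below 0, as were 51.7% of all genes, and the median difference was -0.19 against -0.01 for all genes. Gad1 was at -0.67, Lhx6 at -0.54 and Gad2 at -0.53, each lower than in all but 1.19%, 2.07% and 2.19% of genes. Slc32a1 was at -0.19, Dlx1 at -0.13, and Dlx2 and Dlx5 at -0.06 each. In this step Gad1, Gad2 and Lhx6 lay further from 0 than the Dlx genes, while more of the difference of Slc32a1 from the control was present by 6 h.

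At 12 h, the largest differences from the neuron-labelled control among the lists of related genes were those of 3 interneuron peptides, Sst, Cort and Npy. Only Sst stayed above the floor in each library. Of 22 subtype markers 6 could be compared at each time in the neuron-labelled libraries, and 3 of the 6 were at least 2-fold lower at 12 h, as were 1.45% of all genes. Penk was below 0 without reaching 2-fold, Cck and Cnr1 were above 0, and none of the 6 reached 2-fold at 6 h. Somatostatin (Sst), the peptide of a major interneuron class that derives from Lhx6-expressing precursors, had 154 FPKM without insulin, 122 FPKM at 6 h and 48.5 FPKM at 12 h. Cortistatin (Cort), a related peptide, was at 4.77, 3.67 and 0.972 FPKM, and neuropeptide Y (Npy), often made by the same cells, at 2.40, 1.74 and 0.358 FPKM. The 12 h library was far below the other 2 for each of these peptides. The 12 h differences from the control were -1.66 for Sst, -2.29 for Cort and -2.75 for Npy, and from the 6 h library -1.33, -1.92 and -2.28. Cort and Npy were below the floor at 12 h and passed it through the earlier library alone. Their direction was therefore set by the filter, and nothing is read from the count of 3 of 6. Sst was above the floor in all 3 neuron-labelled libraries. Proenkephalin (Penk) was at 5.53, 5.03 and 3.22 FPKM, short of 2-fold. Some of these peptides were also present in the astrocyte-labelled libraries. Penk was at 109.6, 113 and 96.5 FPKM there, and Npy at 0.320, 0.867 and 0.459 FPKM, a range that includes its 12 h value in the neuron-labelled cultures. Cort was blank in the astrocyte-labelled control and at 0.0427 and 0.0620 FPKM after insulin, and Sst had a value only at 6 h, 0.0213 FPKM.

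No marker of another interneuron class that could be compared reached 2-fold. Cholecystokinin (Cck) was at 3.84, 4.08 and 4.14 FPKM and the cannabinoid receptor gene Cnr1, abundant in the interneurons that make Cck, at 14.3, 17.1 and 15.4 FPKM. Vip, a peptide of interneurons that inhibit other interneurons, was at 0.528, 0.767 and 0.845 FPKM, and calretinin (Calb2) at 0.612, 0.692 and 0.693 FPKM. Parvalbumin (Pvalb), the marker of fast-spiking interneurons, was at 0.00905, 0.0181 and 0.0359 FPKM. Vip, Calb2 and Pvalb were below the floor and are given as levels.

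**Figure D3:**
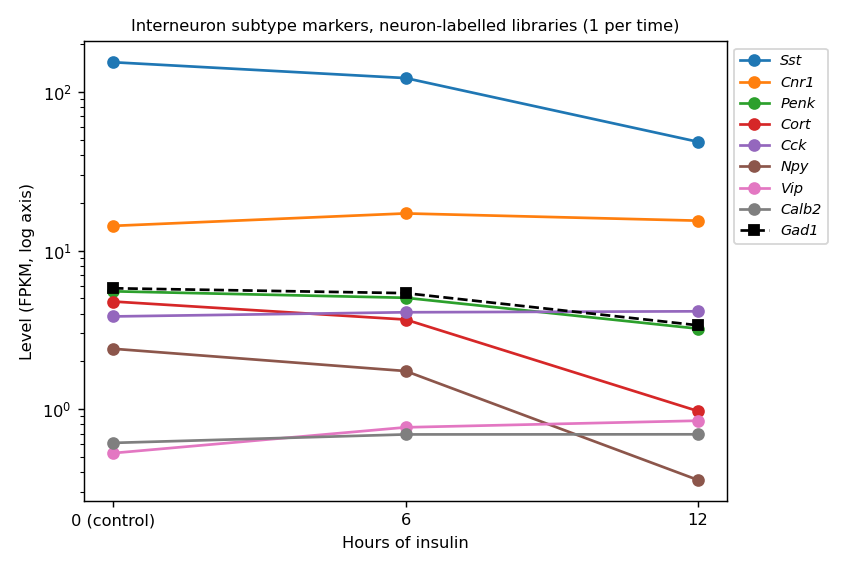
Level (FPKM, log axis) of 8 interneuron subtype markers and Gad1 (dashed) in the neuron-labelled control and after 6 h and 12 h of insulin, 1 library per time. Sst lies at 154, 122 and 48.5 FPKM and Npy at 2.40, 1.74 and 0.358 FPKM, while Cck stays between 3.84 and 4.14 FPKM.

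Other transcription factors of the ventral forebrain were present beside the Dlx genes. Of 24 such factors, 8 or 9 reached 1 FPKM in each neuron-labelled library and 3 in each astrocyte-labelled one. Sp9, a zinc finger factor of GABAergic lineages, was at 4.17 FPKM in the control, 2.60 FPKM at 6 h and 3.45 FPKM at 12 h of the neuron-labelled cultures. None of the 9 factors compared at 12 h reached 2-fold. Of these 9, 6 were below 0, as were 33.9% of all genes, and their median was -0.25. Without the floor the list leaned the other way, with 16 of the 23 factors that had a value in both libraries above 0. Dlx6 and Nkx2-1, chosen after their values were seen, were at 1.08, 0.933 and 1.04 FPKM and at 0.747, 0.606 and 0.862 FPKM. Dlx6 was blank in the 3 astrocyte-labelled libraries. Nkx2-1, which induces Lhx6 in the medial ganglionic eminence, was below the floor.

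Genes that break down GABA or supply its precursor were measured too. Aldh5a1, which completes GABA breakdown, was at 2.91, 3.08 and 2.38 FPKM, with a 12 h difference of -0.29. Abat, the GABA transaminase, was at 0.471, 0.498 and 0.529 FPKM. Of 16 genes of glutamate, glutamine and cofactor supply, 12 could be compared, none reached 2-fold at either time, and 9 were below 0 at 12 h with a median of -0.19. Glutamine synthetase (Glul), an enzyme of glia, was at 106, 106 and 77.7 FPKM. Its 12 h value was the lowest, as for Gad1.

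Pan-neuronal markers went both ways at 12 h. Their median difference was -0.04 over 11 markers, with 6 below 0, 5 above and none at 2-fold. Tubb3 and Dcx, a gene of young neurons, were at or above their control level, with Dcx at 5.08, 6.08 and 6.56 FPKM. The neurofilament gene Nefl was at 14.7, 13.7 and 7.33 FPKM, and the vesicle protein gene Syp at 4.48, 3.88 and 2.72 FPKM. The 12 h differences of Nefl, Syp and the neurofilament gene Nefm were -0.999, -0.72 and -0.52, so Nefl lay further below 0 than Gad1, and Syp further than Gad2 and Slc32a1. Taken relative to the pan-neuronal median, a choice made after seeing the data, all 7 inhibitory genes were below 0 at 6 h and at 12 h, with medians of -0.20 and -0.48. From 6 h to 12 h, 4 were below 0 and 3 above on that scale, with a median of -0.02.

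Markers of other cells moved in the same libraries. The 12 astrocyte markers summed to 373, 388 and 349 FPKM, with a median 12 h difference of -0.18 over 9, and the 12 oligodendrocyte lineage markers to 154, 144 and 147 FPKM, with a median of -0.12 over 7. The 9 progenitor markers summed to 101, 127 and 159 FPKM, and all 6 compared were above 0 at 12 h. Nes, an intermediate filament gene of progenitors and reactive glia, had a 12 h difference of 1.30 on the log2 scale, with 35.5 FPKM against 14.4 FPKM in the control. Mki67 and Top2a of the same list were below the floor and lower at 12 h than in the control. Mki67 was at 0.741, 0.856 and 0.590 FPKM and Top2a at 0.434, 0.594 and 0.351 FPKM. Tagln, of the 10 smooth muscle and fibroblast markers, had a 12 h difference of 1.25 on the log2 scale, with 10.3 FPKM against 4.35 FPKM in the control. The whole list summed to 4.53, 6.74 and 10.6 FPKM, most of it from Tagln. Its other genes were below 1 FPKM. Acta2 was at 0.00209, 0.00679 and 0.0149 FPKM and Cnn1 at 0.00311, 0.00757 and 0.0282 FPKM. Col1a1 was at 0.0113, 0.0131 and 0.0246 FPKM and Pdgfrb at 0.157, 0.183 and 0.216 FPKM. Myh11 was at 0.000550 FPKM in the control, blank at 6 h and at 0.000162 FPKM at 12 h. With depth unknown, no change is read from these low values. Whether a change in the share of cells contributed to the lower inhibitory transcripts was not tested.

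**Figure D4:**
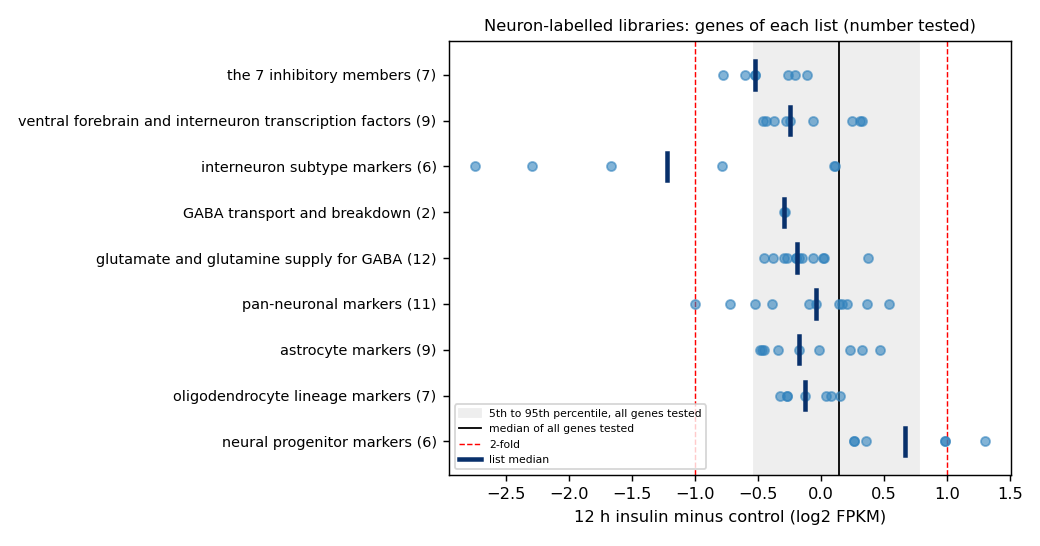
Difference between the 12 h insulin and control neuron-labelled libraries (log2 FPKM) for each gene tested in 9 groups of genes, with list medians (bars), the spread and median of all genes (band and line) and 2-fold (dashed). Sst, Cort and Npy lie beyond 2-fold at the left, and the medians are -0.52 for the 7 inhibitory genes and 0.67 for progenitor markers.

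In the astrocyte-labelled libraries none of the 9 genes reached 1 FPKM, so 0 of 9 entered the insulin comparisons. At 6 h 1.05% of 6206 genes were higher and 0.886% lower there, and at 12 h 0.611% of 6221 were higher and 0.916% lower. The Dlx values after insulin were above the control value for all 3 genes, at levels of 0.165 FPKM or less.

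Likeness to a gene's pattern was measured as the root mean square difference of log2 values over the 6 libraries, each gene centred on its own mean, among 7754 genes. It could be taken for the 3 Dlx genes only. Nearest to Dlx1 were Lrrc16b (0.06), Map2 (0.12), a neuronal microtubule gene, and Slc7a3 (0.14), an amino acid transporter gene. Nearest to Dlx2 were Chadl (0.07), Dbndd1 (0.12) and Tmem198 (0.12). Near to Dlx5 were Rnf112 (0.13) and Pcdhb5 (0.14). The gap between the neuron-labelled and astrocyte-labelled libraries makes up most of these patterns.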

How the data were processed

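Total RNA was depleted of ribosomal RNA and sequenced from stranded libraries, as the labels' protocols say. The values in the authors' deposited table are log2 FPKM after quantile normalisation over the 6 libraries. Its name gives the unit and the quantile step, and base 2 was settled from the values. Build Rnor 6.0 and the tools Partek 6.5 and bcl2fastq 2.17.1.14 come from the submitters' processing notes. Aligner and annotation: not given in the sources used here. Groups were taken from the sample titles, and columns were matched through the description labels.

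Blank cells were left out as missing. Of 2 repeated symbols, the row of higher mean was used. Differences are between log2 values, with a floor of 1 FPKM in either library and a threshold of 1, computed with Python 3.11.15 and pandas 2.3.3, and the counting was tested on simulated data. The genes and the 12 lists, with 169 genes of which 3 were not found, were chosen with earlier results of these data known. Named genes are the 9 members, list genes past 2-fold, the 4 highest of each list in the neuron-labelled control, and markers. Alternatives were no floor, a floor of 5 FPKM, a pseudocount of 1, centring, and other sums for the ratio. Some single genes are not reported here.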

Additional observations from a re-analysis of the deposited data

How the results depend on the processing

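With a floor of 5 FPKM, 3 of the 9 genes could be compared after insulin in the neuron-labelled libraries, and 0 passed 2-fold in either direction. With log2(FPKM + 1), 7 could be compared and 0 passed it. The same held when centred on genes at 5 FPKM or more or, chosen after seeing the data, on pan-neuronal markers. Slc17a6 and Slc17a7 were outside these counts. With no floor, 1 gene was lower at 12 h (Slc17a6) and 2 were lower from 6 h to 12 h (Slc17a6 and Slc17a7), and in the astrocyte-labelled libraries 1 was higher at 6 h (Dlx2) and 2 at 12 h (Dlx2 and Dlx5). All of these rest on levels below 0.2 FPKM. Between the controls 2 genes were higher with a floor of 5 FPKM, as fewer genes were tested. The log2 ratio of GABA genes to glutamate transporters in the neuron-labelled control, 6 h and 12 h libraries was 11.66, 10.72 and 12.07 from mean log2 levels, 11.71, 11.06 and 11.20 with Slc17a8 added, and 12.58, 11.73 and 12.98 with Gad1, the Dlx genes and Lhx6 as the inhibitory sum. The median 12 h difference of the 7 inhibitory genes was -0.29 with log2(FPKM + 1) and -0.66 when centred on genes at 5 FPKM or more, and all 7 were below 0 in both. Gad2 at 6 h was at 0.01 as deposited and -0.12 in both centred versions. No paired analysis was possible because each group had 1 library. Depth is unknown, so no counting error can be set on values near 0.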
